A study of Mus musculus with 46 samples.

Results

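A set of 10 genes of the mammalian circadian clock was followed by RNA sequencing through normal mouse liver and Myc-driven liver tumours. They were taken by symbol from the deposited expression table, which holds 10 of 10 among its 21671 genes: the activators Arntl, Clock and Npas2, the Period genes Per1, Per2 and Per3, the Cryptochrome genes Cry1 and Cry2, the nuclear receptor Nr1d1 and the output factor Dbp. Samples of FVB mice fell into 4 groups. In Myc-off tumours (8 libraries from 3 animal IDs) a wild-type tet-Myc transgene had been shut off by doxycycline in the food for 16 h. MycVD tumours (11 libraries from 10 IDs) grew under a tet-Myc transgene with the V394D substitution, and Myc tumours (16 libraries from 7 IDs) under wild-type tet-Myc. Control liver (11 libraries from 11 IDs) is labelled as normal liver. Per the labels, the transgenes were driven by LAP-tTA, a liver-specific transactivator, from before birth. The V394D change impairs the contact of Myc with its partner protein Miz1.

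The clock is a feedback loop of transcription. BMAL1 (the product of Arntl) pairs with CLOCK or its relative NPAS2 and switches on genes with E-box elements, among them the Per and Cry genes, Nr1d1 and Dbp. PER and CRY proteins then block the pair, and NR1D1 (REV-ERB alpha), a repressor, turns down Arntl and Npas2 through ROR elements, so in healthy mouse liver Arntl and Npas2 peak at the opposite time of day from Nr1d1 and Dbp. DBP acts on D-box elements, and many liver genes of metabolism follow the day through these 3 kinds of element. The labels used here name neither the hour nor the feeding state at collection, so group and hour cannot be told apart. The levels of genes known for opposite phases were also compared within each animal. Such ratios move with the hour as well, so they do not separate group from hour.

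Values are exonic RPKM (eRPKM, exonic reads per kb and per M reads), averaged over the libraries of an animal ID, on the assumption that each ID is 1 animal. Library depth ran from 3.25 to 12.6 M reads. Gapdh was under 30 eRPKM in 8 libraries, of which 5 were of Myc tumours, 2 of MycVD tumours and 1 of control liver (ID125322). Mki67, a marker of dividing cells, had 48.6 to 84.2 eRPKM in Myc-off libraries, 78.5 to 121 in MycVD libraries, 78.3 to 112 in Myc tumour libraries and 0.969 to 7.95 in control libraries. The row Myc overlapped between all groups (2.65 to 11.6 in Myc-off, 2.67 to 9.86 in MycVD, 5.41 to 11.1 in Myc tumour and 1.46 to 18.2 in control libraries). The sources used here do not say whether this row counts transgene reads, so it does not check the labels. All Myc-off IDs are numbered above those of the other groups and all MycVD IDs above the Myc tumour IDs, so that an effect of batch or date and these groups cannot be told apart.

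The promoters of 4 members are shown because they hold, between them, the 3 kinds of element of the loop. Each is printed 5′ to 3′ from 250 bases before to 50 bases after the start site, from RefSeq on GRCm38.p6, another build than the mm9 named for the reads. Capitals mark matches, on either strand, to the E-box CACGTG, the D-boxes TTATGTAA and TTACGTAA, or the ROR element consensus. Per1 is at chr11:69098699-69098998 (plus strand), Cry1 at chr10:85185005-85185304 (minus), Per3 at chr4:151044616-151044915 (minus) and Arntl at chr7:113207261-113207560 (plus).
Per1: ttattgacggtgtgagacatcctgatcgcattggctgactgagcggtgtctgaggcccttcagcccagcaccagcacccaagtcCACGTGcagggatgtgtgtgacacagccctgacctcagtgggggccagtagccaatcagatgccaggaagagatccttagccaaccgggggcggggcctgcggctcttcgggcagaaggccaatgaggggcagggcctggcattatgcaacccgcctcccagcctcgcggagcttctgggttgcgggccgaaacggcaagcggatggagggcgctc
Cry1: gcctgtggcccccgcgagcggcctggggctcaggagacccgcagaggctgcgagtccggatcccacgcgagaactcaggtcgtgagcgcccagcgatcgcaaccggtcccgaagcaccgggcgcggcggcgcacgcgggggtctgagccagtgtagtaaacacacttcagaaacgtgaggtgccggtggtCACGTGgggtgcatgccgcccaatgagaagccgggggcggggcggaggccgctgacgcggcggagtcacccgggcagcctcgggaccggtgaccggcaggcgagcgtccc
Per3: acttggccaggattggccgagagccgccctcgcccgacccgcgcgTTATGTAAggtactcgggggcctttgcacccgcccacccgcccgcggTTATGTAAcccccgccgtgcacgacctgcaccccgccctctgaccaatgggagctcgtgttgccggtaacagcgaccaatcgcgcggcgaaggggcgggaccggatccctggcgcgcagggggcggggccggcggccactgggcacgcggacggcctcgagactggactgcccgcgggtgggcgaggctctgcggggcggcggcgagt
Arntl: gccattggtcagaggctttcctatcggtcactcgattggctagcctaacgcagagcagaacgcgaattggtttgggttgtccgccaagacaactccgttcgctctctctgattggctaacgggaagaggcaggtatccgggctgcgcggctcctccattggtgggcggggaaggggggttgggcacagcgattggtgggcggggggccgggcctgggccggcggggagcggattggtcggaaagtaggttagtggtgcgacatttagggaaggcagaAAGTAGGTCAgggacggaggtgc
The E-box of Per1 starts at position -166 from the start site and that of Cry1 at -60, and 7.15% of all 32851 promoters in the table hold one. Per3 has the D-box TTATGTAA at -205 and again at -158, where 0.938% of promoters hold this motif and 0.119% hold TTACGTAA. The ROR element of Arntl starts at position 27 after the start site, and 0.773% of promoters hold such a match. No match overlapped another. The table gave 13 windows for 9 of the 10 members and none for Per2. The second windows of Per1 and Arntl, from other start sites, held none of these letters, and the windows of Npas2, Clock, Cry2, Dbp and Nr1d1 held none either, which says nothing about the factors that act there.

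**Figure D1:**
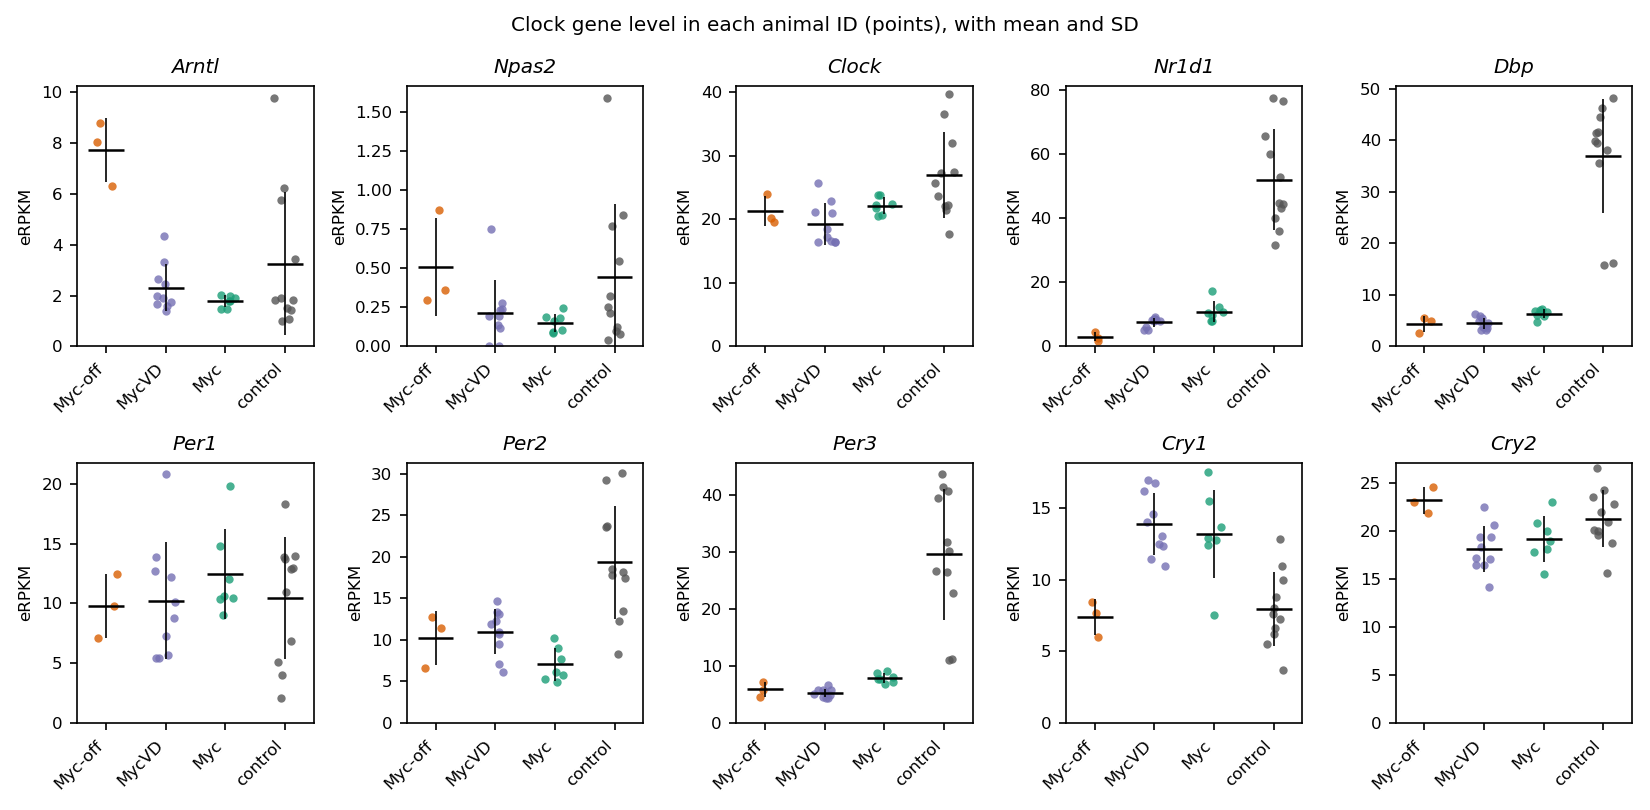
Level of each clock gene (vertical axis, eRPKM, linear from 0) in each animal ID (points) of Myc-off tumours (3 IDs), MycVD tumours (10), Myc tumours (7) and control liver (11), with the mean as a bar and the SD as a line. Nr1d1, Dbp and Per3 lie below every control ID in all 3 tumour groups, while Arntl is highest in Myc-off tumours and in single control livers.

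Of the 10 members, 9 passed the filter on low values and entered the test. Npas2 did not, and is given by its values. In Myc tumours against control liver 5 of the 9 passed the threshold (limma adjusted p under 0.05), beside 80.0% of all 14566 genes tested. Of these 1 was higher, beside 50.4% of all genes, and 4 were lower, beside 29.7%. The median log2 fold change was -0.42 over the 9 members and 0.28 over all genes. Under median-ratio scaling the median of all genes was 0.05, the calls over all genes split into 6033 higher and 5554 lower, against 7334 and 4321, and 8 members passed. The animal ranges of 3 members (Per3, Nr1d1 and Dbp) did not overlap between Myc tumours and control liver, as was so for 53.8% of all genes.

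**Figure D2:**
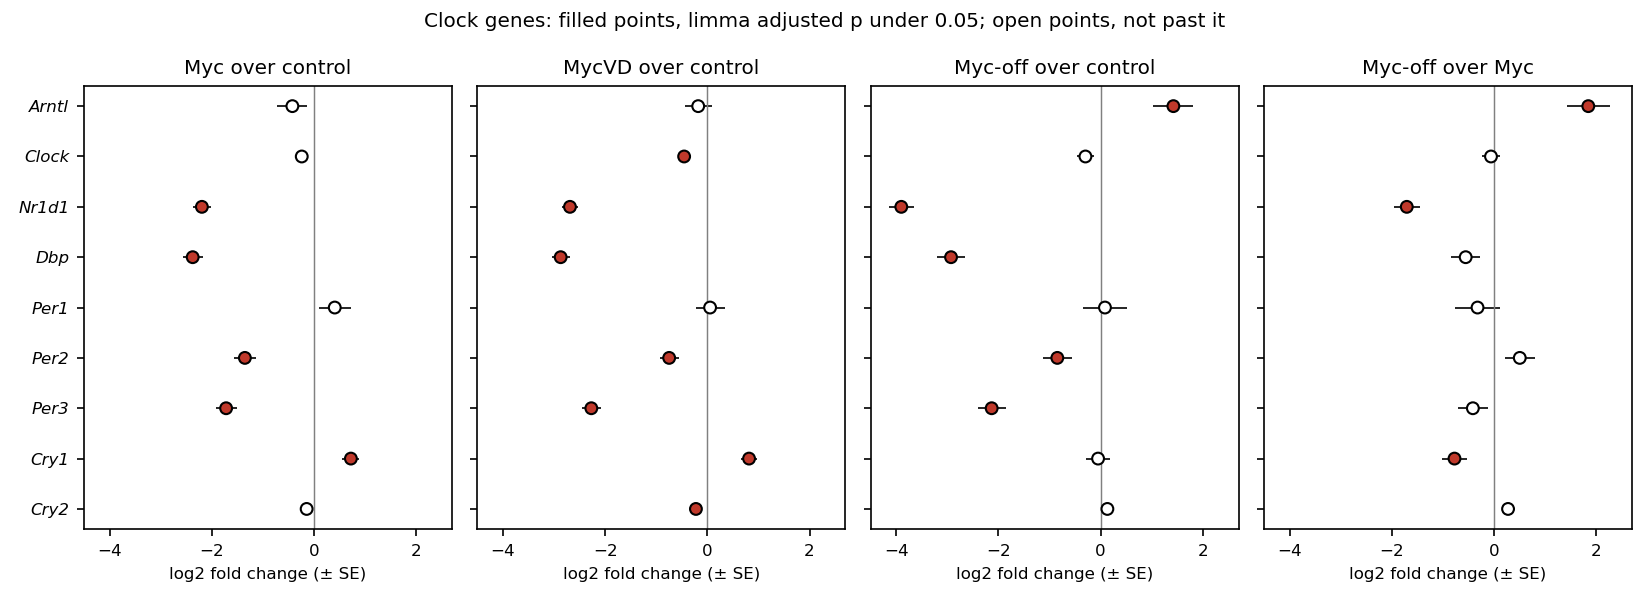
Log2 fold change (horizontal axis, with SE) of the 9 tested clock genes from limma, for Myc tumours over control liver, MycVD tumours over control liver, Myc-off tumours over control liver and Myc-off over Myc tumours; filled points have an adjusted p under 0.05. Nr1d1, Dbp, Per2 and Per3 are below 0 in each comparison with control liver, and Arntl is above 0 in both comparisons of Myc-off tumours.

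Nr1d1, the repressor of the second loop, and Dbp, the output activator, were the members with the largest falls in tumours. Nr1d1 had 1.84, 2.72 and 4.63 eRPKM in the Myc-off animals, 5.06 to 9.02 (median 8.10) in MycVD tumours, 7.77 to 17.3 (median 10.3) in Myc tumours and 31.6 to 77.4 (median 44.6) in control livers. Every tumour value was thus below every control value, and the 3 Myc-off values lay below all values of Myc and MycVD tumours. Against control liver the log2 fold change of Nr1d1 was -2.19 ± 0.18 in Myc tumours (SE, limma adjusted p = 1.83e-12), -2.69 ± 0.16 in MycVD tumours (adjusted p = 1.12e-15) and -3.90 ± 0.24 in Myc-off tumours (adjusted p = 1.88e-14). These 3 comparisons share the control samples. With only the 6 control IDs numbered up to the highest Myc tumour ID, the fold changes were -2.22, -2.71 and -3.92.

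Dbp had 4.96, 2.56 and 5.55 eRPKM in the Myc-off animals, 3.10 to 6.32 (median 4.23) in MycVD tumours, 4.73 to 7.30 (median 6.69) in Myc tumours and 15.7 to 48.3 (median 39.9) in control livers. All tumour animals were lower than all control animals, of which ID125319 (16.2 eRPKM) and ID132859 (15.7) stood apart from the other 9, at 35.6 and above. The log2 fold change against control liver was -2.37 ± 0.20 in Myc tumours (limma adjusted p = 2.24e-12), -2.87 ± 0.18 in MycVD tumours (adjusted p = 1.91e-15) and -2.93 ± 0.27 in Myc-off tumours (adjusted p = 9.77e-11). In a bulk sample such as these, fewer cells of a type and less RNA per cell cannot be told apart.

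The libraries do not mark strand, and on GRCm38 (GENCODE M21) 263 bp of the exons of Nr1d1 (8.55%) overlap exons of Thra, the thyroid hormone receptor alpha gene, on the other strand. Thra averaged 9.77 ± 4.15 eRPKM in Myc-off tumours, 12.5 ± 2.17 in MycVD tumours, 17.7 ± 1.90 in Myc tumours and 9.91 ± 2.18 in control liver (SD), and it rose in Myc tumours against control liver (log2 fold change 0.83 ± 0.13, limma adjusted p = 1.45e-06), opposite to Nr1d1. For Dbp, 539 bp (18.01%) overlap exons of Sphk2, a sphingosine kinase gene, which fell in the same comparison (log2 fold change -0.69 ± 0.10, adjusted p = 1.59e-07). The sources used here do not say how reads in these overlaps were counted, and their part in the values was not tested.

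The 3 Period genes, whose proteins close the main loop, did not move alike. Per3 had 7.21, 4.62 and 5.78 eRPKM in the Myc-off animals, 4.32 to 6.73 (median 5.28) in MycVD tumours, 6.77 to 9.07 (median 7.67) in Myc tumours and 11.0 to 43.7 (median 30.1) in control livers. No tumour value of Per3 reached the control range, whose lowest members were again ID132859 (11.0) and ID125319 (11.2). Per3 fell by 1.72 ± 0.21 on the log2 scale in Myc tumours against control liver (limma adjusted p = 5.90e-09).

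Per2 had 6.57, 12.7 and 11.5 eRPKM in the Myc-off animals, 6.16 to 14.6 (median 11.5) in MycVD tumours, 4.91 to 10.2 (median 6.19) in Myc tumours and 8.29 to 30.1 (median 18.2) in control livers. The ranges overlapped at the lower end of the controls, where ID125319 was lowest. In Myc tumours against control liver Per2 fell by 1.35 ± 0.21 on the log2 scale (limma adjusted p = 7.49e-07). Per1, which also answers to glucocorticoids, had 9.80, 12.5 and 7.10 eRPKM in the Myc-off animals, 5.39 to 20.8 (median 9.46) in MycVD tumours, 8.999 to 19.9 (median 10.6) in Myc tumours and 2.09 to 18.3 (median 12.9) in control livers. All 4 ranges of Per1 overlapped. Its log2 fold change of 0.41 ± 0.31 in Myc tumours did not pass the test (adjusted p = 0.233), and its sign in Myc-off and MycVD tumours against control liver depended on the scaling.

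Of the Cryptochrome genes, which encode the strongest repressors of the BMAL1 pair, Cry1 was the member that rose in Myc tumours. Cry1 had 8.42, 5.98 and 7.70 eRPKM in the Myc-off animals, 10.9 to 16.9 (median 13.5) in MycVD tumours, 7.54 to 17.5 (median 12.9) in Myc tumours and 3.66 to 12.8 (median 7.63) in control livers. Myc tumour ID130395 lay below the control median and the other 6 at 12.4 or more, while the highest control value was that of ID125322. The log2 fold change of Cry1 in Myc tumours against control liver was 0.72 ± 0.17 (limma adjusted p = 2.71e-04). It did not pass after quantile normalisation (0.30, adjusted p = 0.0874) or with library depth as a term (0.37, adjusted p = 0.115). Cry2 ran from 21.9 to 24.7 eRPKM in Myc-off animals, 14.2 to 22.5 in MycVD tumours, 15.5 to 23.0 in Myc tumours and 15.6 to 26.6 in control livers, and its log2 fold change of -0.14 ± 0.09 in Myc tumours did not pass (adjusted p = 0.140), while it passed under median-ratio scaling (-0.39).

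Among the activators, Arntl had 8.04, 8.79 and 6.31 eRPKM in the Myc-off animals, 1.39 to 4.34 (median 1.92) in MycVD tumours, 1.47 to 2.03 (median 1.79) in Myc tumours and 0.998 to 9.76 (median 1.84) in control livers. The Myc tumours lay close together inside the wide control range. Of the control livers ID125319 (9.76) was above all Myc-off animals, ID132859 (6.21) and ID125322 (5.76) lay just below the lowest Myc-off animal, and ID128988 (3.43) came next. In Myc tumours against control liver the log2 fold change of Arntl was -0.42 ± 0.29 and did not pass (limma adjusted p = 0.181), although it passed, still lower, under 5 of 14 alternatives, with a value of -0.62 under median-ratio scaling.

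Clock, the constant partner of BMAL1, was the least variable of the activators. It had 19.6 to 24.1 eRPKM in Myc-off animals, 16.4 to 25.8 in MycVD tumours, 20.6 to 23.8 in Myc tumours and 17.6 to 39.8 in control livers, with all ranges overlapping. Its log2 fold change in Myc tumours was -0.24 ± 0.12 (limma adjusted p = 0.0678), and -0.49 with a call under median-ratio scaling. It also passed without control ID125322, ID128994 or ID142608 (-0.30, -0.26 and -0.27). Npas2, the partner that shares its phase with Arntl, was near the limit of detection, at 0.297, 0.870 and 0.363 eRPKM in Myc-off animals, 0 to 0.748 in MycVD tumours, 0.0865 to 0.244 in Myc tumours and 0.0412 to 1.59 in control livers. These levels rest on 0 to 53 reads per library, and 2 MycVD libraries had 0. In the fit without the filter on low values its log2 fold change in Myc tumours against control liver was -0.41 ± 0.21 (adjusted p = 0.0925).

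After 16 h of doxycycline Arntl was higher and its repressor Nr1d1 lower than in Myc tumours. In Myc-off against Myc tumours 3 of the 9 tested members passed, beside 50.7% of all genes: Arntl was higher (22.8% of all genes were) and Nr1d1 and Cry1 were lower (28.0% were). Arntl and Nr1d1 did not overlap between the animals of the groups, as was so for 45.5% of all genes. Arntl rose by 1.85 ± 0.42 on the log2 scale (limma adjusted p = 4.15e-04). All 8 Myc-off libraries, at 5.89 to 9.61 eRPKM, were above all 16 Myc tumour libraries, at 0.879 to 2.54. Nr1d1 fell by 1.71 ± 0.26 (adjusted p = 2.03e-06), with single libraries at 1.64 to 6.52 eRPKM in Myc-off tumours and 6.34 to 17.3 in Myc tumours, so that 1 Myc-off library reached the Myc tumour range.

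Cry1 averaged 7.37 ± 1.26 eRPKM in Myc-off tumours and 13.2 ± 3.07 in Myc tumours (SD, n = 3 and 7) and fell by 0.77 ± 0.24 on the log2 scale (limma adjusted p = 7.99e-03). This call was lost without Myc-off ID151964 (-0.64, adjusted p = 0.0666) and with library depth as a term (-0.42, adjusted p = 0.199). The other members did not pass. Dbp changed by -0.55 ± 0.28 (adjusted p = 0.104), Per2 by 0.50 ± 0.30 (adjusted p = 0.163), Per3 by -0.41 ± 0.29 (adjusted p = 0.251), Cry2 by 0.28 ± 0.13 (adjusted p = 0.0731), Per1 by -0.32 ± 0.45 (adjusted p = 0.582) and Clock by -0.06 ± 0.17 (adjusted p = 0.809). Cry2 passed under 5 of 13 alternatives and without Myc tumour ID126947 (0.32). Thra fell along with Nr1d1 in this comparison (log2 fold change -0.89 ± 0.19, adjusted p = 2.24e-04). Set against control liver, Myc-off tumours had 5 of 9 members past the threshold, beside 58.3% of all genes. Arntl was higher (37.3% of all genes) at 1.42 ± 0.39 (adjusted p = 2.56e-03), though the ranges overlapped. Nr1d1, Dbp, Per3 (-2.13 ± 0.28) and Per2 (-0.85 ± 0.28) were lower (20.9% of all genes). The Per2 call was lost without Myc-off ID150584 (-0.57, adjusted p = 0.143). Per3, Nr1d1 and Dbp did not overlap with control liver, beside 40.0% of all genes.

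Between MycVD and Myc tumours 1 of 9 members passed, a share near the 15.8% of all genes, and 0 to 4 passed under the alternatives. The 1 member was Per2, higher (6.14% of all genes were) by 0.61 ± 0.21 on the log2 scale at an adjusted p of 0.0498 in limma. The call was lost under 4 of 13 alternatives and when any of 13 single animals was left out, with adjusted p from 0.0501 to 0.104. None was called lower, beside 9.69% of all genes, while 4 of the 9 had an unadjusted p under 0.05, beside 30.7% of all genes. Per3 did not overlap between the animals of the groups, with MycVD tumours at 4.32 to 6.73 eRPKM and Myc tumours at 6.77 to 9.07, as was so for 2.10% of all genes. Its log2 fold change of -0.55 ± 0.21 had an adjusted p of 0.0690, that of Nr1d1 (-0.49 ± 0.19) 0.0647 and that of Dbp (-0.50 ± 0.20) 0.0908. Nr1d1 passed without Myc tumour ID125324 (-0.56, limma adjusted p = 0.0412), and 3 members passed without the 8 libraries with low Gapdh. Of all genes 3987 passed without these libraries, against 2306 in the main fit. Against control liver MycVD tumours had 7 of 9 members past the threshold, beside 80.2% of all genes. Cry1 was higher (0.82 ± 0.15; 49.2% of all genes were higher), and Nr1d1, Dbp, Per3 (-2.27 ± 0.19), Per2 (-0.75 ± 0.19), Clock (-0.45 ± 0.11) and Cry2 (-0.22 ± 0.08) were lower, as were 31.1% of all genes. The 3 members whose animal ranges did not overlap, beside 40.5% of all genes, were Per3, Nr1d1 and Dbp.

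**Figure D3:**
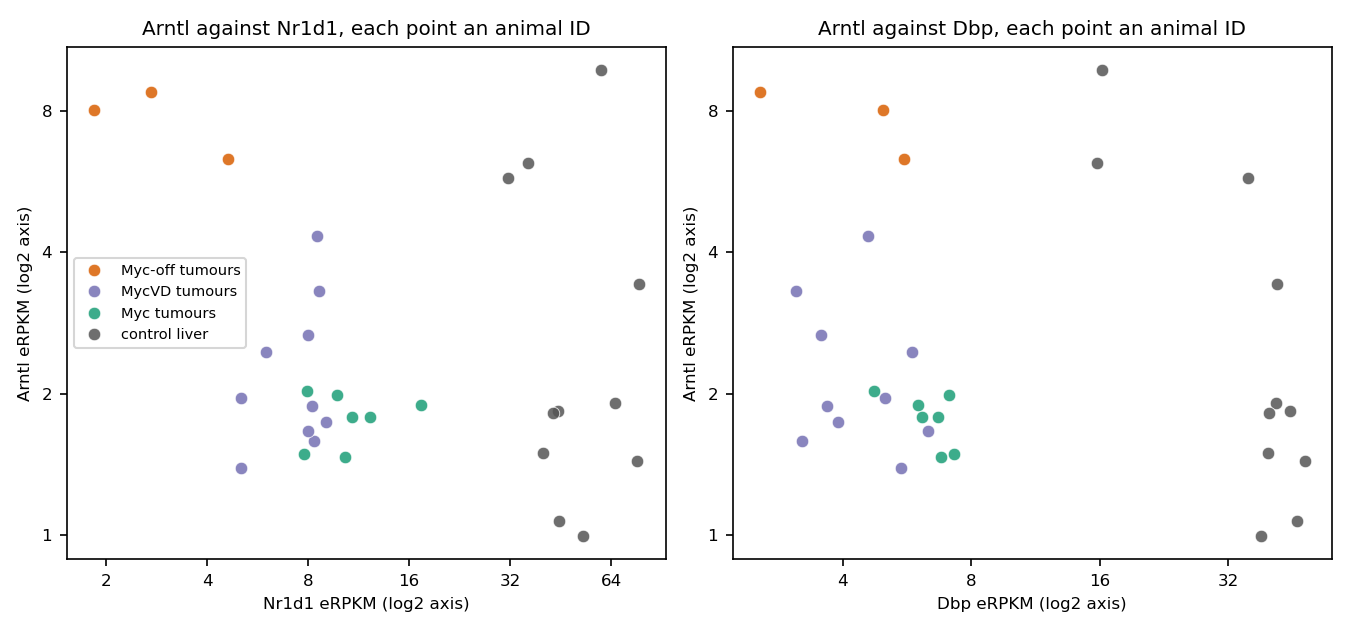
Arntl (vertical axis) against Nr1d1 (left panel) and Dbp (right panel) in each animal ID, in eRPKM on log2 axes, for Myc-off, MycVD and Myc tumours and control liver. Tumours lie to the left of all control livers on both horizontal axes, and Myc-off tumours at the upper left.

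Within each animal the level of a gene of one phase was set over that of a gene of the other, as the log2 ratio of (eRPKM + 0.5), in 30 permutation tests over 6 ratios and 5 comparisons. The Arntl/Nr1d1 ratio was 1.87, 1.53 and 0.41 in the Myc-off animals and averaged 1.27 ± 0.76 there, -1.54 ± 0.43 in MycVD tumours, -2.28 ± 0.38 in Myc tumours and -4.05 ± 1.09 in control liver (SD, n = 3, 10, 7 and 11). Arntl was above Nr1d1 in Myc-off animals alone. The ratio was 3.55 higher in Myc-off than in Myc tumours (exact permutation test, two-sided, p = 0.00833, the smallest that 3 against 7 animals allow, adjusted p = 0.0125). Between Myc tumours and control liver it differed by 1.77, higher in Myc tumours (exact permutation test, adjusted p = 0.00687), with 3 control animals (ID125319, ID125322 and ID132859) inside the Myc tumour range, and 0.74 higher in MycVD than in Myc tumours (exact permutation test, adjusted p = 0.00724). The Arntl/Dbp ratio averaged 0.81 ± 0.73 in Myc-off, -0.85 ± 0.60 in MycVD and -1.59 ± 0.31 in Myc tumours and -3.54 ± 1.43 in control liver. It was 2.40 higher in Myc-off than in Myc tumours (exact permutation test, adjusted p = 0.0125) and, over control liver, 1.95 higher in Myc tumours (exact permutation test, adjusted p = 0.0110). With Npas2 in the place of Arntl the differences between Myc tumours and control liver were 1.78 over Nr1d1 and 1.96 over Dbp (exact permutation tests, adjusted p = 0.00151 and 0.00597), from the low Npas2 values given above. Arntl and Npas2 themselves did not pass between Myc tumours and control liver, whereas Nr1d1 and Dbp fell. The ratios of this comparison thus mainly repeat the falls of Nr1d1 and Dbp and are not separate results. In every comparison the difference of a mean log2 ratio is the difference between the log2 fold changes of its genes. The ratios of Myc-off and MycVD tumours therefore repeat the changes of the single genes and are not separate results either.

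Ratios between genes of like phase were compared in the same way. Nr1d1/Dbp averaged -0.46 ± 0.68 in Myc-off, 0.69 ± 0.56 in MycVD and 0.69 ± 0.43 in Myc tumours and 0.51 ± 0.62 in control liver. The difference of 0.18 between Myc tumours and control liver did not pass (exact permutation test, adjusted p = 0.552). The ratio was 1.15 lower in Myc-off than in Myc tumours (-1.15, exact permutation test, adjusted p = 0.0125), a call lost without Myc-off ID150584 (-0.77). Arntl/Npas2 averaged 3.05 ± 0.34 in Myc-off tumours, against 1.80 ± 0.18 in Myc tumours and 1.82 ± 0.41 in control liver, a difference of 1.25 from Myc tumours (exact permutation test, adjusted p = 0.0125). Most Npas2 values were below the pseudocount of 0.5, which flattens the change of Npas2 itself, and with a pseudocount of 0.1 the difference was 0.85, so its size depends on that choice. Beside control liver the Arntl/Npas2 ratio of Myc tumours differed by -0.01 (adjusted p = 0.964, exact permutation test).

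**Figure D4:**
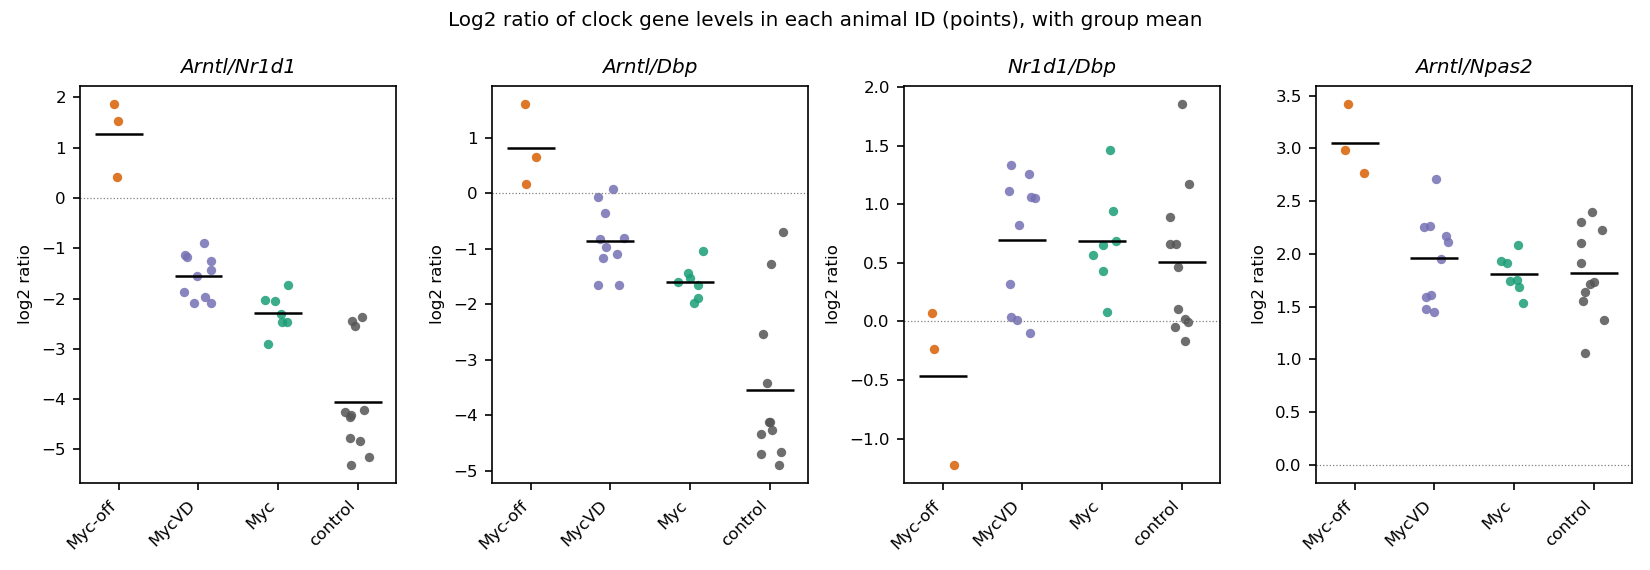
Log2 ratio (vertical axis) of Arntl/Nr1d1, Arntl/Dbp, Nr1d1/Dbp and Arntl/Npas2 in each animal ID (points) of Myc-off, MycVD and Myc tumours and control liver, with the group mean as a bar and a dotted line at 0. Arntl/Nr1d1 is above 0 in the 3 Myc-off animals and below 0 in all others.

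The control livers were not uniform in these genes. ID125319 had the highest Arntl (9.76 eRPKM) and Npas2 (1.59) of the controls, the lowest Per1 (2.09) and Per2 (8.29), and low Dbp (16.2) and Per3 (11.2). ID132859 had Arntl at 6.21, the lowest Dbp (15.7) and the lowest Per3 (11.0), with Nr1d1 at 36.1. In ID125322, the control with low Gapdh, Arntl was 5.76 while Dbp was 35.6 and Nr1d1 31.6, the lowest of the controls. The lowest control values of Nr1d1 (ID125322) and Dbp (ID132859) were above the highest of Myc tumours, 17.3 and 7.30. The part of the hour in these values was not tested.

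Correlations over animals were computed for 8 pairs in each of 3 groups (24 tests, adjusted together), where both genes of a pair share the library and its depth. In control liver 2 of 8 pairs passed by Pearson's r, in MycVD and Myc tumours 0 of 8 each, and the unadjusted p was under 0.05 in none of the tumour pairs. Arntl and Npas2 were high in the same control livers (r = 0.94, permutation p = 1.60e-04, adjusted p = 0.00384; Spearman's rho 0.83, permutation p = 0.00288, adjusted p = 0.0691), and r was 0.86 without the 2 livers farthest from the median of Arntl. Arntl and Dbp went opposite ways (r = -0.81, permutation p = 0.00228, adjusted p = 0.0274; rho -0.57, p = 0.0726, adjusted p = 0.581). That relation rests in part on the 2 livers farthest from the median of Arntl, without which r was -0.50. With 1 liver left out r ran from -0.88 to -0.69 (lowest size without ID125319), and the adjusted p was over the threshold without ID125319, ID125322, ID132859 or ID142606. Arntl and Nr1d1 had an r of -0.16 in control liver (permutation p = 0.638, adjusted p = 0.799; rho -0.15, adjusted p = 0.837). Per3 and Dbp had an r of 0.88 (permutation p = 0.00792, adjusted p = 0.0634; rho 0.41, adjusted p = 0.707), which was 0.06 without the 2 farthest livers.

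**Figure D5:**
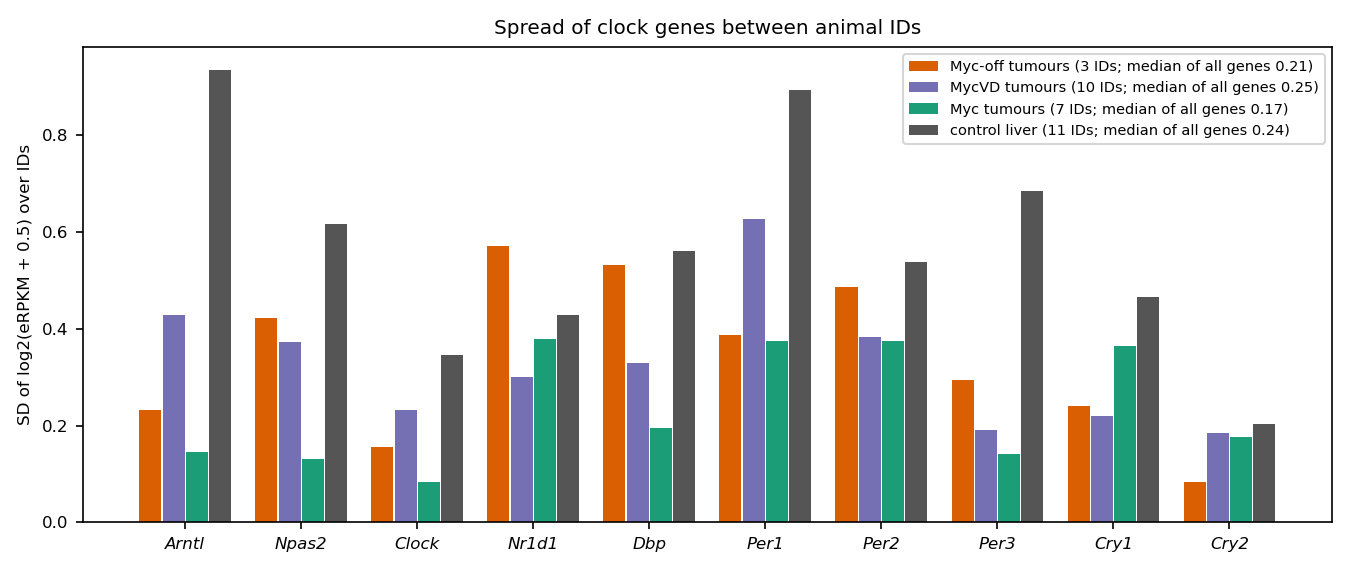
SD over animal IDs of log2(eRPKM + 0.5) (vertical axis) for each clock gene in Myc-off tumours, MycVD tumours, Myc tumours and control liver, with the median SD of all tested genes in the legend. Arntl, Per1 and Per3 have the tallest bars, all of control liver, and their bars of Myc tumours are shorter.

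The spread of most clock genes between animals was wide in control liver, but that of Cry2 (SD 0.20 on the log2 scale) was below the median over all genes. The SD on the log2 scale for Arntl was 0.15 in Myc tumours and 0.93 in control liver, where it was larger than that of 98.0% of all tested genes, and the median over all genes was 0.17 in Myc tumours and 0.24 in control liver. Per1 had an SD of 0.37 in Myc tumours and 0.89 in control liver, Per3 0.14 and 0.68, and Dbp 0.20 and 0.56, so each of these varied more among control livers. Nr1d1 had like spreads in both, 0.38 in Myc tumours and 0.43 in control liver. In MycVD tumours Per1 was the most variable member (0.63, larger than 87.9% of genes). These SDs are descriptions, and their differences were not tested. Each control value is 1 library, while most Myc tumour values are means of several libraries, which can lower the SD. For Arntl the SD between tumours of one Myc tumour animal was 0.31. Several tumours each came from 5 Myc tumour animals, 14 libraries in all. There Per1 had an SD of 0.15 between tumours of one animal and of 0.39 between the means of animals. Cry1 had an SD of 0.38 between tumours of one animal and of 0.09 between the means of animals. The 2 tumours of ID128992 had 9.58 and 21.3 eRPKM of Cry1. Means over several libraries vary less than single libraries, so these SDs within and between animals are unlike measures. In 4 of the 5 animals the library with the highest Cry1 was one with low Gapdh (16.1 eRPKM of Gapdh in the library with 21.3 of Cry1, against 51.8 in its partner). Over all 7 Myc tumour IDs the SD of Cry1 was 0.36. Without the libraries with low Gapdh, Cry1 was still higher in Myc tumours than in control (0.62, limma adjusted p = 9.89e-04). Over all genes the medians of these unlike SDs were 0.20 between tumours of one animal and 0.16 between the means of animals.

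The genes most like Arntl and Dbp over the 31 animals were found by Pearson's r after each group's mean was taken off, among 12481 genes with a mean of at least 2 eRPKM. These r are descriptions of points that share libraries and depth. Among the closest to Arntl were B3gat3 (0.81), Mta2 (0.80), Mif4gd (0.78) and Dnmt3b (0.77). The 5 most opposite were Per3 (-0.79), Usp2 (-0.76), Pbrm1 (-0.75), Mast3 (-0.73) and Tef (-0.71), of which Per3, Usp2 and Tef are known clock-controlled genes of liver. Closest to Dbp were Usp2 (0.68), Per3 (0.67), Wee1 (0.66), Blm (0.66) and Marcksl1-ps4 (0.65), and most opposite were Arntl (-0.67), Chka (-0.65), A430105I19Rik (-0.64), Egln3 (-0.63) and Trip11 (-0.63). These r differed by group. The r of Dbp with Usp2 was 0.82 in control liver, 0.41 in MycVD tumours and -0.50 in Myc tumours. With Per3 the r of Dbp was 0.88 in control liver, -0.41 in MycVD tumours and 0.25 in Myc tumours. Wee1, Blm and Marcksl1-ps4 had an r with Dbp above 0 in each of these groups. In Myc tumours alone the r of Arntl with Mta2 was -0.82, against 0.93 in control liver, with Mif4gd -0.16, against 0.84 in control liver, and with Dnmt3b -0.06, against 0.95 in control liver. With Per3 it was 0.45 in Myc tumours, against -0.88 in control liver, and with Tef 0.03, against -0.95 in control liver. The 7 Myc tumour IDs differed little in Arntl (SD 0.15 on the log2 scale), so these r rest on small differences. In MycVD tumours the r of Arntl was 0.48 with Mta2, 0.80 with Mif4gd, 0.05 with Dnmt3b, -0.44 with Per3 and -0.27 with Tef.

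A list of 26 other genes of the second loop, the clock kinases and ligases and the outputs was read in the same fit. In Myc tumours against control liver 9 rose and 11 fell, where 50.4% of all genes rose and 29.7% fell. The list's median was -0.13 (log2 fold change), beside 0.28 over all genes. The largest falls were in Elovl3 (-5.45 ± 0.64), a fatty acid elongase, Fbxl21 (-3.26 ± 0.15), a ligase subunit for CRY proteins, Rora (-3.24 ± 0.14), the activator that competes with NR1D1, and Alas1 (-2.07 ± 0.15), which starts haem synthesis. Tef, a relative of Dbp, averaged 24.8 ± 2.50 eRPKM in Myc tumours and 62.0 ± 12.97 in control liver and fell by 1.28 ± 0.12 on the log2 scale (limma adjusted p = 2.80e-11). The largest rises were in Timeless (2.08 ± 0.15) and Tipin (1.93 ± 0.10), a pair that travels with the replication fork, Wee1 (1.64 ± 0.21), a mitotic kinase, and Lonrf3 (1.26 ± 0.23).

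In Myc-off against Myc tumours 6 of the 26 rose and 8 fell, where 22.8% of all genes rose and 28.0% fell. The median was 0.00 over all genes and -0.06 over the list. Rora had 4.15, 10.2 and 12.6 eRPKM in the Myc-off animals and 1.77 to 2.80 in Myc tumours, against 22.4 to 30.6 in control liver. It rose by 1.67 ± 0.20 (limma adjusted p = 3.32e-08) and thus lay between the Myc tumours and control liver. Arntl2, the paralogue of Arntl, rose by 0.81 ± 0.20 (limma adjusted p = 1.12e-03). It averaged 1.68 ± 0.47 eRPKM in Myc-off tumours, 0.731 ± 0.18 in Myc tumours and 0.174 ± 0.14 in control liver, so this rise was away from the control level. Bhlhe40, a repressor at E-boxes, rose by 0.75 ± 0.26 and Fbxl21 by 0.71 ± 0.21. Timeless (-1.77 ± 0.22), Lonrf3 (-1.73 ± 0.32), Usp2 (-1.69 ± 0.47), a deubiquitinase with a strong daily rhythm, and Ciart (-1.59 ± 0.46), a repressor of the BMAL1 pair, fell. Nr1d2, the paralogue of Nr1d1, fell as well, to 18.6 ± 4.38 eRPKM in Myc-off tumours, against 31.1 ± 2.05 in Myc tumours (-0.75 ± 0.18, adjusted p = 9.51e-04). In MycVD against Myc tumours Rora was the 1 gene of the list that rose (1.09 ± 0.14, limma adjusted p = 3.75e-06) and 0 fell. Over all genes 6.14% rose and 9.69% fell there, and the median was -0.05, beside -0.02 over the list. In MycVD tumours against control liver 9 rose and 13 fell, where 49.2% of all genes rose and 31.1% fell. In Myc-off tumours against control liver 6 rose and 11 fell, where 37.3% of all genes rose and 20.9% fell.

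Hormone and feeding signals also reach these genes, and lists for them were read beside the clock. Of 6 glucocorticoid-responsive genes 2 rose and 3 fell in Myc tumours against control liver, among them Tat (-5.61 ± 0.68) and Tsc22d3 (-2.01 ± 0.13), which fell, and Mt2 (0.96 ± 0.27), which rose; in Myc-off against Myc tumours 1 rose (Tat, 3.19 ± 0.97) and 0 fell. Of 8 genes of fasting 1 rose and 5 fell in Myc tumours against control liver, and 3 rose and 1 fell in Myc-off against Myc tumours. Pck1, the gluconeogenic enzyme, fell by 5.20 ± 0.72 in Myc against control and rose by 3.07 ± 1.03 in Myc-off against Myc tumours. Of 5 genes of feeding and fat synthesis 0 rose and 4 fell in Myc tumours against control liver, and 3 rose and 0 fell in Myc-off against Myc tumours. Over all genes 50.4% rose and 29.7% fell in Myc tumours against control liver, and 22.8% rose and 28.0% fell in Myc-off against Myc tumours. The part of these signals in the levels of the clock genes was not tested.

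The 6 hepatocyte markers, summed per animal, ran from 796 to 842 eRPKM in Myc-off tumours, 501 to 773 in MycVD tumours, 390 to 606 in Myc tumours and 593 to 1076 in control livers, and no marker averaged 0 in any group. The medians of these sums were 818 in Myc-off, 586 in MycVD and 450 in Myc tumours and 1027 in control livers. The summed level of 6 endothelial markers was 45.5 to 85.4 eRPKM in Myc-off tumours, 35.7 to 82.4 in MycVD tumours, 45.6 to 71.7 in Myc tumours and 129 to 241 in control livers, and in none of the tumour animals did it reach the control range. Its members did not go together. Clec4g, of sinusoidal endothelium, had a median of 3.19 eRPKM in Myc tumours and 65.3 in control livers, and Stab2, a scavenger receptor, 4.46 in Myc tumours and 25.0 in control livers, whereas Pecam1, a general endothelial marker, had 19.98 in Myc tumours and 14.8 in control livers. The 6 stellate cell markers summed to 54.9 to 94.3 in Myc-off tumours, 34.3 to 102 in MycVD tumours, 51.6 to 87.8 in Myc tumours and 129 to 150 in control livers. Here the median of Dcn was 25.4 in Myc tumours and 71.9 in control livers, and that of the collagen gene Col1a1 32.8 in Myc tumours and 4.21 in control livers. Neutrophil markers (3 of 4 in the table) summed to 106 to 228 in Myc-off tumours, 29.8 to 327 in MycVD tumours, 52.4 to 154 in Myc tumours and 7.79 to 21.6 in control livers. The 5 bile duct cell markers summed to 32.9 to 134 in Myc-off tumours, 5.27 to 66.6 in MycVD tumours, 9.67 to 30.7 in Myc tumours and 16.8 to 32.6 in control livers. Macrophage markers (5) summed to 97.3 to 141 in Myc-off tumours, 61.1 to 120 in MycVD tumours, 106 to 120 in Myc tumours and 85.2 to 172 in control livers, with all ranges overlapping, although Cd68 had a median of 64.5 in Myc tumours and 12.1 in control livers and Clec4f, of Kupffer cells, 6.94 in Myc tumours and 62.6 in control livers. The 3 T cell markers in the table summed to 3.70 to 6.10 in Myc-off tumours, 1.58 to 4.36 in MycVD tumours, 1.61 to 3.98 in Myc tumours and 0.921 to 3.02 in control livers. The 5 erythroid markers summed to 59.1 to 193 in Myc-off tumours, 39.9 to 158 in MycVD tumours, 53.9 to 168 in Myc tumours and 36.8 to 73.1 in control livers. Markers of dividing cells (4) summed to 135 to 177 in Myc-off tumours, 258 to 341 in MycVD tumours, 262 to 325 in Myc tumours and 3.22 to 19.02 in control livers. No marker of these lists was at 0 in every animal of a group. These marker levels thus differed between the groups along with the clock genes, and their part in the levels of the clock genes was not tested.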

How the data were processed

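The authors deposited exonic RPKM values for 21671 genes in 46 columns, each matched to a sample by its title, with 0 columns of other samples. Per the labels' protocols, ribosomal RNA was removed with Ribozero, and the library kit was TruSeq RNA v2, which does not mark strand. Per the submitters' processing notes, the tools were TopHat and TopHat2 2.0.8 and the build mm9; no counter, annotation or handling of duplicates is named in the sources used here. Values of a gene step in whole reads: 99.99% of the 777027 values above 0 came out whole (tolerance 0.001), which gave each library's depth. The 2 most similar libraries of a group still differed beyond sampling noise (chi-square per degree of freedom 3.28).

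Libraries of one ID were averaged, and p-values measure the spread between IDs. The 14566 genes that reached 1 eRPKM in 3 or more IDs were tested, and 7105 were removed, Npas2 among them. Fold changes came from limma 3.58.1 (R 4.3.3; linear model, contrasts, moderated variance with a trend) on log2 values (eRPKM plus 0.5), the 4 groups sharing 1 fit, two-sided, Benjamini-Hochberg adjustment over all genes and a threshold of 0.05. This scale understates the change of low genes. Ratios and correlations were tested by permutation (numpy; checked against scipy 1.17.1), two-sided, exact or with 100000 resamples, adjusted over 30 and 24 tests. Alternatives were other pseudocounts, filters and scalings, a depth term, libraries as samples, first libraries, array weights, the 2 groups compared alone, each ID left out and early control IDs only. Chosen after seeing the data were a fit without the 8 libraries with low Gapdh and voom (limma) on the recovered reads, which called 11816 genes in Myc tumours against control liver, 8390 in Myc-off against Myc tumours, 2896 in MycVD against Myc tumours, 11455 in MycVD tumours against control liver and 9084 in Myc-off tumours against control liver. The tests were checked on simulated data. The members, gene lists and markers were chosen with earlier results of these data known. Named were the 10 members, of each list the genes past the threshold with the 4 largest rises and falls, the 5 genes most like and most opposite to Arntl and Dbp, and Myc, Mki67, Gapdh and Thra. Sphk2, Tef and Nr1d2 were named after their values were seen, and 2 genes that the rule names are not reported here.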

Additional observations from a re-analysis of the deposited data

Results flagged for a closer look

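Npas2 in MycVD animal ID134660 was at 0.748 eRPKM, apart from the other 9 MycVD animals at 0 to 0.281. The gap to the next animal was 0.625 of the group's whole range, above Dixon's critical value for 10 animals. Over 20 sets of a gene and a group checked in this way, 1 was found, and chance gives about 1 in 20.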

How the results depend on the processing

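No paired analysis was possible because the replicate numbers pair no samples across groups. The calls of Nr1d1, Dbp and Per3 against control liver, and of Arntl and Nr1d1 in Myc-off against Myc tumours, kept their direction and their side of the threshold under every alternative run. Median-ratio scaling and every library as its own sample each called 8 members in Myc tumours against control liver. Over all genes these settings called 11587 and 12130, against 11655. In Myc-off against Myc tumours quantile normalisation called 5, and every library as its own sample and a fit of the 2 groups alone called 6, while over all genes these settings called 7927, 9506 and 7938, against 7387. In MycVD against Myc tumours 0 members passed with a pseudocount of 0.1 or 1, without the filter or with the depth term, 3 with every library as its own sample or without the libraries with low Gapdh, and 4 with array weights or the 2 groups alone; 0 to 1 passed with 1 animal left out. Over all genes that comparison gave 2306 calls in the main fit, 2132 with a pseudocount of 0.1, 2356 with 1 and 2341 without the filter. It gave 3296 with every library as its own sample and 2467 with the 2 groups alone. It gave 959 with the depth term, 4770 with array weights and 3987 without the libraries with low Gapdh. With 1 animal left out that comparison gave 1500 (without Myc tumour ID130395) to 2646. The split of its calls was 895 higher and 1411 lower, against 1202 and 1025 under median-ratio scaling. For Myc-off tumours against control liver the split was 5439 higher and 3049 lower, against 4223 and 4365 under median-ratio scaling.

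Small fold changes turned sign. Clock in Myc-off against Myc tumours was 0.062 after quantile normalisation, 0.0084 under median-ratio scaling and 0.16 with the depth term. Per1 in MycVD tumours against control liver was -0.27 after quantile normalisation, -0.14 under median-ratio scaling, -0.017 without the libraries with low Gapdh and -0.13 to 0.15 with 1 animal left out. Per1 in Myc-off tumours against control liver was -0.21 after quantile normalisation, -0.093 under median-ratio scaling, -0.061 with the first library of each ID, -0.15 with array weights and -0.10 to 0.29 with 1 animal left out. In the same comparison Cry1 was 0.034 with array weights, 0.022 without the libraries with low Gapdh and -0.15 to 0.083 with 1 animal left out, and Cry2 was -0.052 under median-ratio scaling. Cry1 in MycVD against Myc tumours ran from -0.027 to 0.17 with 1 animal left out.

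Of the ratios, Arntl/Npas2 in Myc tumours against control liver was 0.27 with a pseudocount of 0.1 and -0.090 to 0.044 with 1 animal left out. With that pseudocount Npas2/Nr1d1 (0.62) and Npas2/Dbp (0.64) in MycVD against Myc tumours no longer passed. Nr1d1/Dbp in MycVD against Myc tumours was -0.015 with a pseudocount of 1, -0.0017 with first libraries and -0.10 to 0.13 with 1 animal left out. Nr1d1/Dbp in Myc-off tumours against control liver no longer passed with a pseudocount of 1 (-0.91), with early control IDs (-1.01) or with 9 of 14 single animals left out (-1.24 to -0.59), and against Myc tumours it ran from -1.42 to -0.77. In control liver 5 pairs correlated past the threshold after quantile normalisation, 4 under median-ratio scaling and 1 to 2 with 1 animal left out. In Myc tumours 1 did after quantile normalisation or with first libraries and 0 to 1 with 1 animal left out. The r of Arntl and Nr1d1 in control liver was 0.034 without the library with low Gapdh and -0.37 to 0.034 with 1 animal left out. The cause of these changes was not tested.

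With 3 Myc-off animals exact tests cannot go below p = 0.00833 against Myc tumours or 0.00275 against control liver, and the reads of Npas2 are too few for its levels to be ranked closely.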
